A study of Mus musculus with 5 samples.

Results

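RAP1 peaks in the first 5 Mb of the mouse autosomes are described here, the stretch of each chromosome that lies next to its centromere. Members are all listed peaks on chromosomes 1 to 19 whose start lies before position 8000000 of mm9. This position rule found 1130 of the 30398 peaks in the list, 196 on chromosome 11 and 934 on the other 18 autosomes. Chromatin was precipitated with a RAP1 antibody from mouse embryonic fibroblasts of mixed background, immortalised with SV40 large T and grown with puromycin. The series holds libraries of 2 independent wild-type cultures (WT) and 2 independent Rap1-deleted cultures (RAP1_ko), the study's negative control, and 1 input without antibody. How Rap1 was deleted, and whether a line is 1 clone, is not given in the sources used here.

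RAP1 belongs to shelterin, the complex that shields chromosome ends, and is carried to telomeric repeats by its partner TRF2. It has also been mapped to sites along chromosome arms. Mouse chromosomes are telocentric: a telomere sits beside the centromere, followed by minor and then major satellite repeats, which form the pericentromeric heterochromatin. The satellite arrays are largely missing from the assembly, where the first 3 Mb of each autosome are a placeholder. The window from 3 Mb to 8 Mb is therefore the first assembled sequence beside the satellites, and not the satellites themselves. No autosomal peak starts before 3 Mb.

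The deposited list gives each peak a positive and a negative read set, read here as the pooled wild-type and the pooled Rap1-deleted libraries, after the design text. There is no value per library, so nothing below has a spread between replicates, no difference was tested, and differences between groups of peaks are descriptions. Reads in windows of the forward and the reverse strand of each peak were summed (strand-window reads). The negative reads were multiplied by 3.32, the factor contained in the deposited fold values. Brackets after a value give a 95% interval for counting error only. Over all listed peaks the strand windows sum to 914436 positive and 48131 negative reads, which gives 5.72 (5.67 to 5.77) after scaling. Sequencing depth per library is unknown. How peaks were selected is not given, but every listed peak has a deposited log2 fold of 2.27 or more. No member has fewer than 10 positive reads on either strand. These ratios thus come from a list that favours positive reads, and they do not test binding.

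Outside chromosome 11, RAP1 peaks were somewhat sparser beside the centromere than along the rest of the same chromosomes. The first 5 Mb of the 18 chromosomes hold 934 peaks, 10.4 per Mb (9.72 to 11.1), against 12.2 per Mb (12.01 to 12.3) in the remainder, a density ratio of 0.854 (0.799 to 0.911). On 14 of the 18 the window was sparser than the rest, with the whole interval of the ratio under 1 on 8, and on 4 it was denser. Chromosome 1 has 18 peaks in its window, 3.6 per Mb against 11.9 in its rest, a ratio of 0.302 (0.179 to 0.478). Chromosome 3 has 39 peaks, 7.8 against 14.8 per Mb (0.529, 0.375 to 0.725). Peaks come in groups, so these intervals are too narrow.

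Chromosome 14 has no listed peak in the window at all. Its first peak starts at 8582115, 5.58 Mb after the start of the window. A count of 0 allows up to 0.6 peaks per Mb by a floor of 3 peaks, and up to 0.738 per Mb by the exact Poisson interval, against 10.6 per Mb in the rest of that chromosome. Whether reads can be placed in this stretch of chromosome 14 was not tested.

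Chromosome 19 has the opposite pattern, with 171 peaks in its window. That is 34.2 per Mb (29.3 to 39.7) against 15.8 in its rest, a ratio of 2.16 (1.82 to 2.55). It is the only one of the 18 whose interval lies wholly above 1. The others above their rest are chromosome 18 with 14 per Mb against 10.9 (ratio 1.29, 0.996 to 1.64), chromosome 6 with 14 against 12.1 (1.16, 0.898 to 1.47) and chromosome 2 with 14.4 against 12.5 (1.15, 0.897 to 1.46). Without chromosome 19, the remaining 17 have 8.98 per Mb in the window and a density ratio of 0.744 (0.691 to 0.800).

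**Figure D1:**
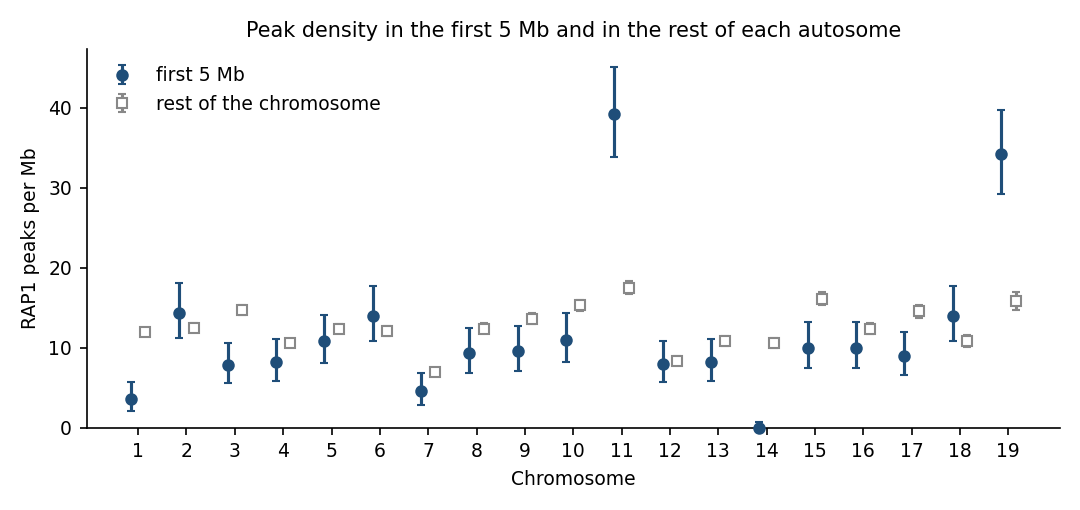
RAP1 peaks per Mb (y axis) in the first 5 Mb (filled circles) and in the rest (open squares) of each autosome (x axis), with exact Poisson 95% intervals. Chromosomes 11 and 19 stand at 39.2 and 34.2 per Mb in the window, while chromosome 14 has none and 14 of the other 18 chromosomes lie below their own rest.

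The window of chromosome 11 held more peaks than any other, although its interval overlaps that of chromosome 19, and most of its excess over the rest of the chromosome sat in a single group near the window start. It holds 196 peaks, 39.2 per Mb (33.9 to 45.1), against 17.5 (16.8 to 18.3) in the rest of chromosome 11, a ratio of 2.24 (1.92 to 2.59). That group has 72 of them, joined at gaps of up to 10 kb, from 3025355 to 3100104. That is 0.963 peaks per kb over 74.8 kb, with a median gap of 597 bp between neighbours. The peaks themselves cover 5.67 kb, or 7.58% of the group. The group was not set against an mm9 annotation or a list of regions with high signal in any library, and whether reads can be placed uniquely there was not tested. Without the group, the window still holds 124 peaks, 24.8 per Mb, 1.42 times (1.17 to 1.70) the density of the rest.

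Density along the window of chromosome 11 was highest at its start. The first 0.5 Mb hold 88 peaks (176 per Mb), the next steps of 0.5 Mb hold 20, 20 and 14, and the last 2 steps hold 3 each. On the other 18 chromosomes the first 0.5 Mb held 67 peaks or 7.44 per Mb (5.77 to 9.45), close to the 7.67 (5.97 to 9.70) between 3.5 and 4 Mb. The densest step had 14.8 per Mb, between 2.5 and 3 Mb, and the last step had 9. Without chromosome 19 the first step had 7.53 per Mb and was not the sparsest, with 7.29 between 1 and 1.5 Mb and 7.41 between 3.5 and 4 Mb. Chromosome 19 adds to the middle of the window more than its share of sequence. From 1.5 to 3 Mb, a stretch picked after its values were seen, chromosome 19 has 83 peaks (55.3 per Mb) and the other 17 chromosomes together 293 (11.5 per Mb).

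**Figure D2:**
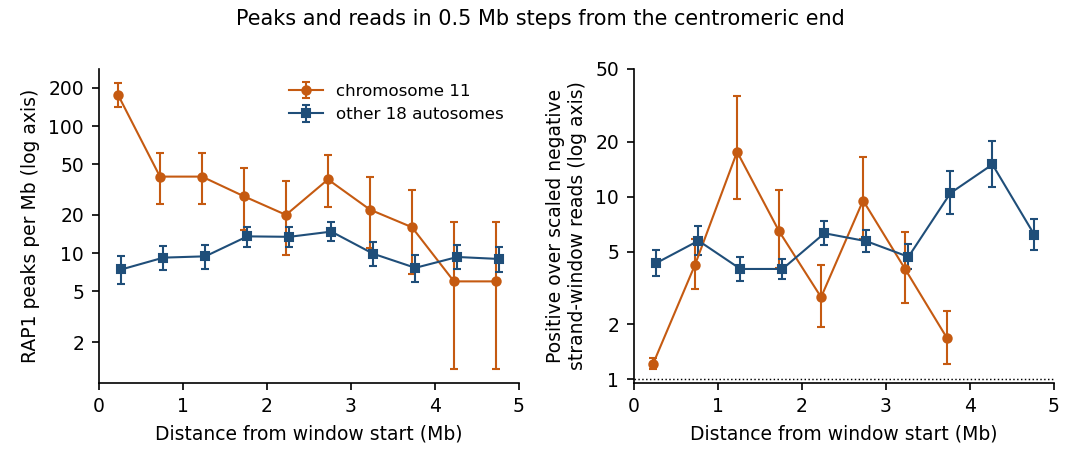
Peaks per Mb (left, log axis) and the ratio of positive to scaled negative strand-window reads (right, log axis) in steps of 0.5 Mb from the start of the window, for chromosome 11 (circles) and the other 18 autosomes together (squares), with exact 95% intervals. Chromosome 11 begins at 176 peaks per Mb with a ratio of 1.22; its last 2 steps have no negative read, so no ratio is drawn for them.

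The ratio of wild-type to Rap1-deleted reads was lower in the window of chromosome 11 than in the windows of the other autosomes together. On the other 18 autosomes, 28535 positive and 1554 negative reads gave a scaled ratio of 5.53 (5.25 to 5.82), against 5.96 (5.90 to 6.02) in the rest of these chromosomes. On chromosome 11, 7431 and 1230 reads gave 1.82 (1.71 to 1.93), against 4.499 (4.36 to 4.64) in the rest of chromosome 11. At least 1 negative strand-window read stands at 99 of the 196 peaks on chromosome 11 (50.5%, 43.3 to 57.7) and at 180 of the 934 elsewhere (19.3%, 16.8 to 22.0). In the whole list the share is 18.8%, so the 18 chromosomes together lie near the background and chromosome 11 above it. Among the 18, chromosome 19 has 36.8% and the remaining 17 have 15.3%.

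The low ratio of the chromosome 11 window sits in the group of 72 peaks. Its 3701 positive reads are 1.13 times (1.06 to 1.22) its 984 negative reads after scaling. For the 124 peaks outside the group the ratio is 4.57 (4.01 to 5.22), where the rest of the chromosome has 4.499. The group makes up 0.237% of all listed peaks and 0.405% of the positive strand-window reads, but 2.04% (1.92 to 2.17) of the negative ones. Negative reads stand at 66 of its 72 peaks, and outside it at 33 of 124 (26.6%, 19.1 to 35.3).

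**Figure D3:**
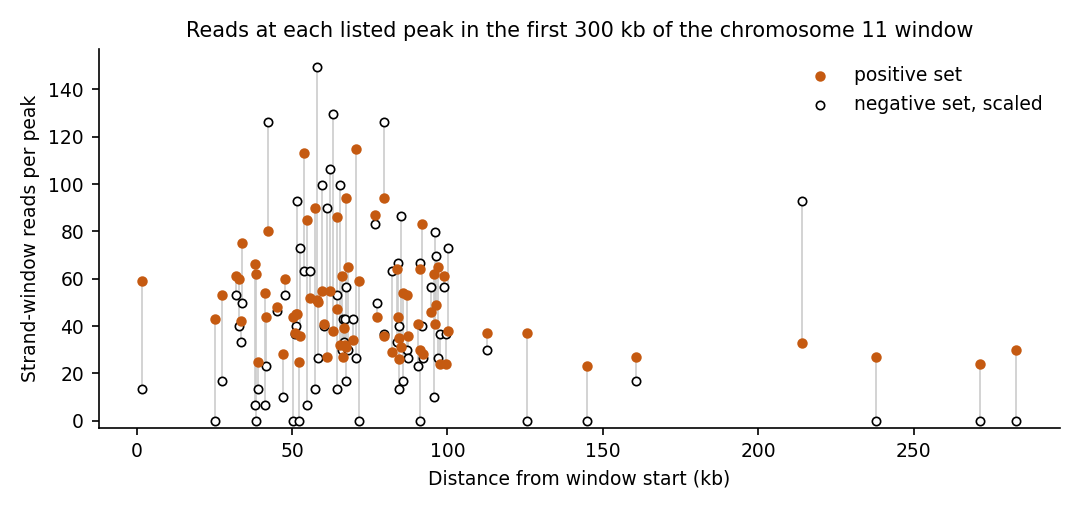
Positive (filled) and scaled negative (open) strand-window reads (y axis) at each listed peak at the start of the chromosome 11 window, by distance from the window start (x axis, kb); a grey line joins the values of 1 peak. Between about 25 and 100 kb open and filled points overlap in height, and 29 of the 72 peaks of the group have the open point at or above the filled one.

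Peak by peak, scaled negative reads equalled or exceeded positive reads at many members of this group. The ratio is at or under 1 at 29 of the 72 peaks (40.3%, 28.9 to 52.5), between 1 and 2 at 21, and above 2 at 16. In the whole list 6.58% of peaks have a ratio at or under 1. In the window of chromosome 11 outside the group the count is 7 of 124 (5.65%), and on the other 18 chromosomes 67 of 934 (7.17%), both near that background. The 95% interval lies wholly under 1 at 13 of the 72 peaks, against 1.6% of the list. Negative reads were also spread over both strands at 39 of the 72, against 2.12% of the list. Among peaks with any negative read, both strands carried them at 59.1% (46.3 to 71.0) of the group. The share was 16.1% (12.8 to 19.7) in the rest of chromosome 11 and 10.1% (9.24 to 10.9) in the rest of the other 18 chromosomes. The median negative count at such peaks is 12 in the group, 8 in the rest of chromosome 11 and 7 in the rest of the others. The part of this count in the result was not tested.

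The 5 peaks of chromosome 11 with the most negative reads all lie in the group. The peak from 3058162 to 3058191 has 20 forward and 31 reverse positive reads against 15 forward and 30 reverse negative reads, a scaled ratio of 0.341 (0.224 to 0.521). The peak from 3063186 to 3063214 has 38 positive and 39 negative reads (0.293, 0.183 to 0.471). In the peak from 3042324 to 3042425 they are 80 and 38 (0.634, 0.426 to 0.959). The other two, from 3079599 to 3079763 and from 3062064 to 3062259, have ratios of 0.745 (0.506 to 1.12) and 0.517 (0.329 to 0.827). Thus 4 of the 5 have intervals wholly under 1. Because these 5 were picked by their negative reads, the denominator of the ratio, the choice itself favours low ratios.

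The authors' ranking placed this same group high. It holds 11 of the 100 best-ranked peaks and 32 of the 1000 best-ranked peaks of the list. Of those 11, 1 has a strand-window ratio at or under 1, 5 lie between 1 and 2, 4 lie above 2 and 1 has no negative strand-window read. The best-ranked of all members is at rank 26, from 3057471 to 3057555, with 92 positive reads over the peak, 90 positive and 4 negative strand-window reads and a ratio of 6.77 (2.56 to 25.4). At rank 33, the peak from 3076616 to 3076996 has 94 positive reads over the peak but 87 against 25 in the strand windows (1.048, 0.665 to 1.71). At rank 40, from 3083752 to 3083810, the ratio is 1.93 (0.983 to 4.21). At rank 41, from 3091929 to 3092050, it is 2.08 (1.13 to 4.19). At rank 43, from 3054822 to 3054890, 85 positive stand against 2 negative reads (12.8, 3.44 to 107). High and low ratios therefore lie within a few kb of each other in the group.

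The deposited whole-peak column shows little of these negative reads. Of the 72 peaks, 60 have 0 negative reads in it, and 55 of those have negative reads in the strand windows. Over all 60 the summed strand-window ratio is 1.03 (0.952 to 1.11). The other 12 carry 26 whole-peak negative reads. They are 12 of only 78 peaks in the list with any such read, or 15.4%. Among these 12, the peak ranked 99, from 3071672 to 3071746, has 1 whole-peak negative read and none in its strand windows, so a 0 in the windows is not always a 0 at the peak. Outside the group no peak in the window of chromosome 11 has a whole-peak negative read.

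Within the group the ratio was higher at the side nearer the window start. In steps of 25 kb the ratios are 1.67 (1.40 to 2.01) over 15 peaks, 1.06 (0.956 to 1.18) over 30 and 1.01 (0.903 to 1.14) over 27. Only 1 of the first 15 peaks has a ratio at or under 1, against 14 of the next 30 and 14 of the last 27. Windows of close peaks can share reads: 11 of the 71 neighbouring pairs lie under 200 bp apart, so some reads may be counted at more than 1 peak.

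Peaks of the group were also read-rich and more often very short. The median is 49.5 positive reads over the peak (range 13 to 130), against 27 in the window outside the group and 28 in the whole list, and 36 of the 72 reach 50 reads (50%, 38.0 to 62.0), against 4.23% of the list. Lengths of 29 to 31 bp, the shortest in the list, occur at 31 of the 72 (43.1%, 31.4 to 55.3) and at 18.5% outside the group. The median length is 38 bp in the group and 53.5 bp in the remaining window. Longer peaks occur in both, with upper quartiles of 73.5 and 74 bp and maxima of 467 and 365 bp. The signed offset, reverse read mode minus forward read mode, has a median of 29 bp in the group, against 49.5 bp in the remaining window and 52 bp in the whole list. It is above 0 at 63 of the 72 peaks (87.5%) and at 93.0% of the list.

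Before the group, the first member of chromosome 11 stands alone, from 3001829 to 3001857, with 59 positive and 4 negative strand-window reads (4.44, 1.65 to 16.8). Behind it, the window of chromosome 11 holds 3 further groups of 4 or more peaks. Their ratios are 3.83 (2.08 to 7.85) from 3795619 to 3814797, 13.4 (4.504 to 66.0) from 4194890 to 4205216 and 8.88 (3.38 to 33.1) from 5625774 to 5642482. All 3 exceed the ratio of the group of 72.

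**Figure D4:**
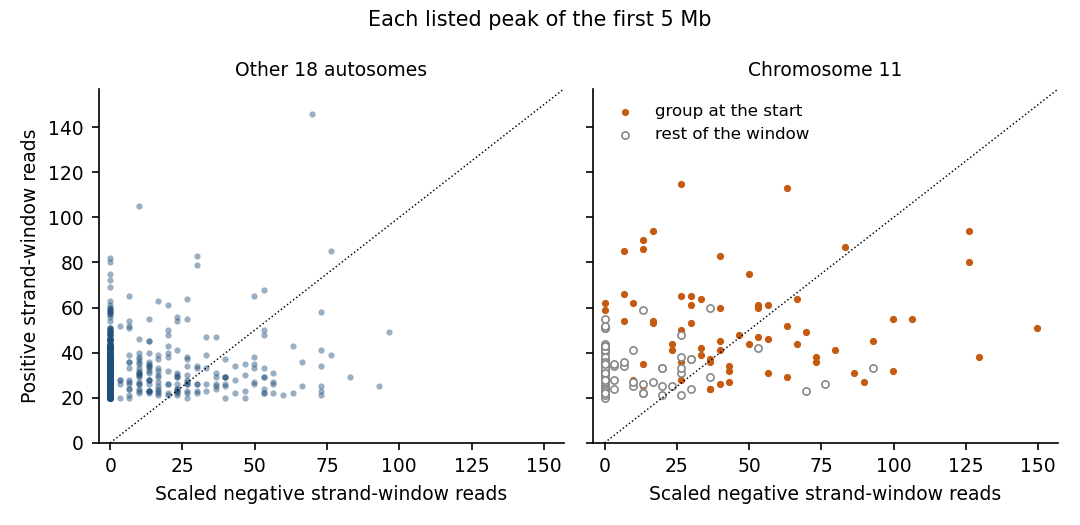
Positive (y axis) against scaled negative (x axis) strand-window reads of every member, for the other 18 autosomes (left) and for chromosome 11 (right; filled, the group of 72 peaks; open, the remaining window); the dotted line marks equal values. Most members line up at 0 negative reads, 754 of 934 on the left and 91 of the 124 open points on the right, whereas 66 of the 72 filled points lie away from 0.

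A smaller group at the start of chromosome 18 showed a like mix of reads. It holds 7 peaks within 5.59 kb, from 3004948 to 3010534, with 16 to 110 positive reads over the peak (median 71). Positive strand-window reads number 419 and negative ones 92, which gives 1.37 (1.09 to 1.74), and 6 of the 7 peaks have negative reads, 4 of them on both strands. The best-ranked, from 3005399 to 3005450, has 110 positive and 4 negative reads over the peak and a strand-window ratio of 2.09 (1.32 to 3.48). The next to it, from 3005934 to 3005964, has 85 positive and 23 negative strand-window reads (1.11, 0.695 to 1.85). Without this group the window of chromosome 18 has a ratio of 9.76 (7.53 to 12.9) over 63 peaks, where the rest of the chromosome has 8.46 (7.93 to 9.03). With it the ratio is 4.65 (3.94 to 5.52). As on chromosome 11, this group was set apart after its values were seen.

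Few other chromosomes have peaks so near the start. Besides chromosome 18, only 4 peaks lie in the first 0.1 Mb of the 18 windows, on chromosomes 3, 4, 9 and 17. Those on chromosomes 3 and 4, starting at 3054008 and 3011345, have 30 and 22 positive and no negative strand-window reads. On chromosome 9, from 3023369 to 3023397, 64 positive stand against 8 negative reads (ratio 2.41). On chromosome 17, from 3082602 to 3082630, they are 38 and 15 (0.763).

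**Figure D5:**
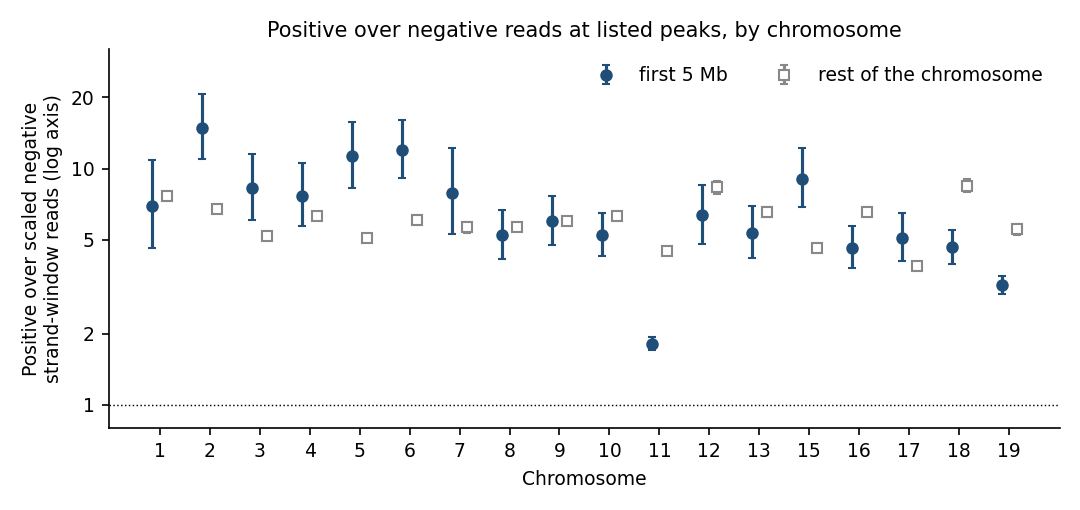
Positive over scaled negative strand-window reads (y axis, log scale) in the first 5 Mb (filled circles) and the rest (open squares) of each autosome with members (x axis), with exact conditional binomial 95% intervals; the dotted line marks equal reads. Chromosome 11 at 1.82 and chromosome 19 at 3.22 are the lowest windows, and chromosome 2 at 14.8 is the highest.

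Across the 17 other chromosomes with members, the ratio in the window lay above that of the rest on 8 and below it on 9. The intervals of window and rest were apart on 9 of them, above on 6 and below on 3. The highest are chromosome 2 with 14.8 (10.9 to 20.6) against 6.73 in its rest, chromosome 6 with 12.03 (9.16 to 16.1) against 6.05, and chromosome 5 with 11.3 (8.30 to 15.7) against 5.11. These 3 rest on 42, 53 and 42 negative reads. On chromosome 2, 7 of 72 peaks have any negative read, and on chromosome 5 they are 4 of 54.

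Chromosome 19 has the lowest ratio of the 18, together with its high density. Its window gives 3.22 (2.94 to 3.52), against 5.53 (5.24 to 5.84) in its rest, and 63 of its 171 peaks have negative reads (36.8%, 29.6 to 44.5). By single Mb from the start, the ratio is 17.2 (9.28 to 36.0) over 18 peaks, then 1.72 (1.49 to 2.003) over 40, 3.74 (3.22 to 4.36) over 66, 2.87 (2.28 to 3.66) over 23 and 6.13 (4.39 to 8.82) over 24. The negative reads of this window thus lie mostly between 1 and 3 Mb from its start, away from its first assembled sequence. They occupy both strands at 6 of the 63 peaks, or 9.52% (3.58 to 19.6), near the 11.3% of such peaks in the whole list and the 13.0% in the rest of chromosome 19.

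Peaks of chromosome 19 also formed most of the groups, which were likewise not set against an annotation or such a list. Of 14 groups of 4 or more peaks on the other 18 chromosomes, 9 lie on chromosome 19. The largest, from 5786593 to 5804345, has 10 peaks with 21 to 95 positive reads and a ratio of 2.15 (1.66 to 2.83). Its neighbour from 5835981 to 5851585 has 9 peaks and a ratio of 2.504 (1.81 to 3.55). The 6 peaks from 4309897 to 4316424, with 179 positive against 64 negative reads, give 0.842 (0.630 to 1.14). The group from 5032839 to 5050359 has 1.17 (0.780 to 1.79). Another 3, from 5448415 to 5470189, from 6363351 to 6378208 and from 7606524 to 7615222, have ratios of 4.79, 4.76 and 3.28. Far fewer negative reads stand at the group from 5088240 to 5108410, with 136 positive against 3 (13.6, 4.57 to 67.0). None stands at the group from 5650455 to 5666889, whose 119 positive reads are 11.9-fold higher than a scaled floor of 3 negative reads over the group. Its exact 95% lower limit is 9.56.

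Besides the group at the start of chromosome 18, the remaining 4 groups are spread over 4 chromosomes. On chromosome 18, 5 peaks from 5150825 to 5165660 have 151 positive reads against 1. On chromosome 6, 4 peaks from 6020018 to 6045212 have 129 against 0 (12.9-fold against the floor, exact lower limit 10.4). Those on chromosome 8 from 3509270 to 3517707 and on chromosome 13 from 5859854 to 5875329 have ratios of 1.06 (0.729 to 1.58) and 1.35 (0.909 to 2.06). Groups near equality with the control therefore also occur away from the first 0.1 Mb.

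Of the 10 best-ranked peaks on the other 18 chromosomes, 2 had a ratio at or under 1, against 67 of all 934 members (7.17%). The 10 best hold 50 to 110 positive reads over the peak at ranks 50 to 230. No negative strand-window read stands at 5 of them, and none at 754 of the 934 members. The best, on chromosome 16 from 4316255 to 4316306, has 45 forward and 35 reverse positive reads and no negative read. Its bound against the floor of 3 negative reads is 8.03-fold (exact lower limit 6.38). On chromosome 15 the peak from 6572711 to 6572795 has 38 and 37 (bound 7.53-fold, exact lower limit 5.97). The others without negative reads lie on chromosome 9 from 6228044 to 6228122, on chromosome 16 from 3115486 to 3115523 and on chromosome 19 from 5835981 to 5836085, with bounds of 5.92, 5.12 and 5.72. On chromosome 19, from 5794075 to 5794133, 105 positive stand against 3 negative strand-window reads (10.5, 3.51 to 51.9). On chromosome 16, from 5254482 to 5254511, the ratio is 2.07, with an interval that spans 1 (0.980 to 5.03).

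A pair of these best-ranked peaks, both on chromosome 17, were not above the control in the strand windows. From 6016579 to 6016608, a 30 bp peak with 65 positive reads over the peak has 49 positive and 29 negative strand-window reads (0.509, 0.315 to 0.835). From 6098021 to 6098106, 50 positive stand against 16 negative reads, all 16 on the forward strand (0.941, 0.527 to 1.77). Neither peak of the pair has a negative read in the whole-peak column. The first of them is also the member with the most negative reads on these 18 chromosomes.

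Of the 10 members with the most negative reads there, with 22 to 29 each, 9 have ratios at or under 1. Negative reads are the denominator of the ratio, so picking by them favours low ratios. The lowest is 0.269 (0.150 to 0.478) on chromosome 9 from 7838533 to 7838563, with 25 positive against 28 negative strand-window reads. Next lie chromosome 8 from 3517678 to 3517707 (0.287), chromosome 10 from 5036962 to 5037026 (0.315) and chromosome 4 from 3600103 to 3600173 (0.349). On chromosome 8 from 4238512 to 4238550 the ratio is 0.465. The 3 on chromosome 19, from 4315520 to 4315576, from 6331235 to 6331327 and from 6995693 to 6995823, give 0.511, 0.561 and 0.794. In 4 of the 10 every negative read lies on 1 strand.

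Taking the best-ranked member of each of the 17 chromosomes, 12 have no negative strand-window read, as have 754 of all 934 members. A ratio at or under 1 occurs at 1 of the 17, against 7.17% of the 934. These 17 peaks hold 38 to 110 positive reads over the peak, at ranks from 50 to 2196. The last is that of chromosome 2, from 3562390 to 3562420, with 38 positive reads and a bound of 3.81-fold (exact lower limit 2.95). On chromosome 13 the peak from 3372788 to 3372935 has 77 positive reads over the peak and 60 in the strand windows (bound 6.02-fold, exact lower limit 4.75). On chromosome 1 it lies from 7079696 to 7079784 with 57 (bound 5.72-fold, exact lower limit 4.503). On chromosome 10, from 5727702 to 5727748, it has 51 reads over the peak and 46 in the strand windows (bound 4.62-fold, exact lower limit 3.61). Those of chromosomes 3, 5, 6, 7 and 12 start at 6440846, 3842297, 6962359, 3298878 and 3811593, have 38 to 43 positive reads over the peak and bounds of 3.41, 4.22, 4.22, 4.32 and 4.11. On chromosome 4 the peak from 5984395 to 5984553 has 52 positive against 2 negative strand-window reads (7.83, 2.06 to 66.4), and on chromosome 8 that from 3516837 to 3516874 has 50 against 6 (2.51, 1.08 to 7.16).

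In other measures the 934 peaks lay near the rest of their chromosomes, with a slightly larger share of very short peaks. The median is 28 positive reads over the peak in both, and the median length is 54 bp in the window and 56 bp in the rest. At least 50 reads occur at 50 of 934 (5.35%, 3.999 to 6.997) and at 4.05% (3.82 to 4.30) of the rest. Lengths of 29 to 31 bp occur at 20.6% (18.0 to 23.3) and at 17.5% (17.03 to 17.9). Neighbouring peaks lie under 10 kb apart in 19.4% (16.9 to 22.1) of pairs in these windows and in 20.2% (19.7 to 20.7) of pairs in the rest of all 19 autosomes. In the window of chromosome 11 it is 54.9% (47.6 to 62.0) of pairs.

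The peaks next to the limit of 8000000 were looked at on chromosomes 11 and 15. On chromosome 11 the last member lies from 7898562 to 7898592 with 22 positive reads, and the first peak beyond starts at 8040242 with 25. On chromosome 15, where the last member and the first peak beyond lie closest to the limit, they start at 7985311 and 8058045 with 23 and 43 reads. None of these 4 has a negative strand-window read.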

How the data were processed

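The values come from 1 deposited peak list of the whole series on mm9 (per the submitters' processing notes). The aligner, peak caller, read filters and the place of the input are not given in the sources used here. Per the file headers, the authors give counts of positive and negative reads over the peak and in windows of each strand, the highest window as a coverage signal in reads, a fold, which the values show to be log2, a false discovery rate (a q-value) and a score named Delta, which was not used. Lengths and mode offsets are deposited in bp.

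The factor of 3.32 is the median solved from the deposited log2 folds; 140 of 141 solvable entries returned it within 0.001. Ratios have exact conditional binomial, densities exact Poisson and shares Clopper-Pearson intervals at 95% (scipy 1.17.1, Python 3.11.15, pandas 2.3.3). They express counting error alone, as reads amplified by PCR are not independent. Where a peak or group has no negative read, the ratio is a bound with a floor of 3 negative reads, or 9.96 after scaling. Such a bound leaves out the counting error of the positive reads, so the exact 95% lower limit is lower (6.38 where the bound is 8.03). The rest of a chromosome runs from 8000000 to its last listed peak. Peaks were joined to groups at gaps of up to 10 kb. The planned comparison of the genotypes across libraries was not run, since no column holds values per library. The ratio intervals, the factor and the joining were tested on simulated data, and the density and share intervals were not.

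The members and lists were chosen with earlier results of these data known. Named peaks are, on chromosome 11, the 5 best-ranked, the 5 with most negative strand-window reads and the first and last members. On the other 18 autosomes they are the 10 best-ranked, the 10 with most negative reads, the best-ranked of each chromosome, and groups of 4 or more peaks; peaks of the first 0.1 Mb, the peak ranked 99 and all splits were chosen after their values were seen. Coordinates are printed as deposited, and no peak was assigned to a gene, since no annotation of mm9 was used.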

Additional observations from a re-analysis of the deposited data

How the results depend on the processing

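The window of the other 18 autosomes stayed sparser than their rest under all 8 alternatives, and that of chromosome 11 denser under all 9. Beside 0.854, the density ratio of the other 18 was 0.688 in the first 1 Mb, 0.789 in the first 10 Mb and 0.913 with the window measured from the first listed peak; leaving out each chromosome gave 0.744 (without chromosome 19) to 0.897. Beside 2.24, that of chromosome 11 was 6.11, 4.05 and 1.37 in the first 1, 2 and 10 Mb, 2.60 at a false discovery rate of up to 0.01, 2.60 in the better-ranked 50%, 1.66 after merging within 1 kb and 1.42 without the group of 72, a choice made after seeing the data.

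Beside 5.53, the strand-window ratio of the other 18 was 4.96, 4.38 and 5.89 in the first 1, 2 and 10 Mb, 6.54 at the stricter false discovery rate and 6.61 in the better-ranked 50%; leaving out each chromosome gave 5.27 to 6.71 (without chromosome 19). Beside 1.82, that of chromosome 11 was 1.34, 1.59 and 2.11 in those windows, 1.68 in the better-ranked 50% and 4.57 without the group. Whole-peak reads gave 575 and 84.7, since that column lists almost no negative reads. Beside 19.3%, the share of peaks with negative reads on the other 18 was 16% in the first 1 Mb, and 15.3% (without chromosome 19) to 20.1% leaving out each chromosome. Beside 50.5%, that of chromosome 11 was 71.3%, 59.9% and 42.4% in the first 1, 2 and 10 Mb, 59.2% at the stricter rate, 62.1% in the better-ranked 50% and 26.6% without the group. Apart from the whole-peak column and the removal of the group, the cause of these shifts was not tested.

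No paired analysis was possible because the list has no column per library. For the same reason no library was left out. Library depth is unknown, and ratios of single peaks rest on few negative reads.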

Other observations

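Where negative reads occurred, their highest window lay inside the peak in 77 of 105 strand entries of the group at the start of chromosome 11 (73.3%, 63.8 to 81.5), in 22 of 36 in the remaining window of chromosome 11 (61.1%, 43.5 to 76.9), in 112 of 203 in the windows of the other 18 autosomes (55.2%, 48.1 to 62.1) and in 49.9% (48.5 to 51.2) of entries in the rest of those chromosomes. In the window of chromosome 19 it was 60.9% (48.4 to 72.4). The interval of the group overlaps those of the remaining chromosome 11 window and of chromosome 19, and the differences were not tested. Of the positive strand-window reads of the group, 51.5% lie on the forward strand.

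In the authors' deposited table, the log2 fold takes in negative reads at 9 of the 72 peaks of the group and at 58 peaks of the whole list, going by a deviation of more than 0.001 from the positive reads alone. The median log2 fold of the authors' deposited table is 5.13 in the group and 4.70 in the list.

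Protein-coding genes at the start of chromosome 11 are, in the order of a RefSeq table of another assembly (GRCm38.p6) and leaving out unnamed gene models, Sfi1, Eif4enif1, Drg1, Patz1, Pik3ip1 and Limk2. Sfi1 encodes a centrin-binding protein of the centrosome. The builds differ, so no peak was assigned to any of them.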
